A study of Oryctolagus cuniculus with 4 samples.

Results

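The genes described here encode the cytoplasmic ribosome and the factors that start and extend protein synthesis on it. They were taken by symbol from the transcript count table: every symbol beginning with RPL or RPS and a digit, with EEF or with EIF, except the kinase symbols beginning with RPS6K. The rule found 77 of 20294 genes, namely 17 RPL, 14 RPS, 6 EEF and 40 EIF genes. The RNA came from intact semitendinosus tendons, hamstring tendons used as ligament grafts, of female New Zealand White rabbits, 4 animals that were each 193 days old. There was 1 tendon per animal, and surface muscle had been scraped from each with a blade. No treatment, genotype or second group is given in the labels, so the values describe 1 group and the spread between its 4 animals.

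A cytoplasmic ribosome has a small subunit, which reads the messenger RNA, and a large subunit, which joins the amino acids. Initiation factors (eIF) bring the initiator transfer RNA and the messenger RNA to the small subunit, and elongation factors (eEF) deliver the following transfer RNAs and move the ribosome along. Cells that secrete collagen, such as tendon fibroblasts, depend on this machinery, and skeletal muscle is known to use its own forms of a few of its parts.

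Tendons 1 to 4 had 19759696, 30646052, 27304439 and 30038827 estimated counts. TPM, used for levels, is a transcript's abundance after division by its length, brought to an equal total in each tendon. CPM is not corrected for length and was scaled by the TMM method where tendons are compared. Of 10 tenocyte symbols listed for a check of the label, 9 had an entry, and their summed level ran from 28968 to 65814 TPM, highest in tendon 1. Of these genes, THBS4 and FMOD were highest in tendon 2 and TNMD in tendon 4, the others in tendon 1. Of 14 skeletal muscle symbols, 11 had an entry, and their sum ran from 7475 TPM in tendon 1 to 29594 TPM in tendon 2. In whole tissue such as this, fewer cells of a type and less RNA per cell cannot be told apart. Genes without a symbol (7069) held 25.7% ± 0.440 (SD, n = 4) of TPM, and ribosomal genes among them could not be found by the rule.

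Together the 77 genes held 4.67% of all TPM in tendon 1, 4.73% in tendon 2, 5.10% in tendon 3 and 4.73% in tendon 4, on average 4.81% ± 0.198 (SD, n = 4). The lowest and the highest tendon thus differed 1.09-fold. Small-subunit genes took 1.76% ± 0.0809, large-subunit genes 1.29% ± 0.0521, elongation factor genes 1.22% ± 0.0736 and initiation factor genes 0.535% ± 0.00704. EEF1A1 alone held 22.0% ± 0.869 of the TPM of the 77 genes. The order of the first 3 groups depended on length correction. Without it, small-subunit genes took 0.708%, large-subunit genes 0.691%, elongation factor genes 1.09% and initiation factor genes 0.683% of counts. Annotated lengths ran from 156 bases (RPL39) to 9617 bases (EIF4G3).

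Among large-subunit genes, RPL23 stood first in TPM (ENSOCUG00000013915.2, OryCun2.0 chromosome 19, 40300584 to 40304272). Its levels in tendons 1 to 4 were 2156, 2481, 2403 and 2493 TPM, on average 2383 ± 157 (SD, n = 4). RPL4, whose product lines the exit tunnel for the growing protein, followed at 1744, 1758, 1797 and 1735 TPM. This was a mean of 1758 ± 27.5 TPM and, with an SD of 1.56% of the mean, a narrow range. RPL12, at the base of the stalk that binds elongation factors, had 1394 ± 78.2 TPM, RPL13A 1331 ± 66.8 and RPL14 1311 ± 113. The means of RPL12 and RPL13A, and those of RPL13A and RPL14, differed by less than the SD of either gene. The canonical genes RPL19, RPL10A, RPL11, RPL37, RPL8 and RPL10 lay between 250 and 991 TPM, with RPL11, also known as a binder of the p53 regulator MDM2, at 623 ± 38.7. The order of the RPL genes rests on annotated lengths, which reach 5589 bases for RPL10. In TMM-normalised CPM, RPL4 was highest, with a mean of 1214, and RPL10, at 763, lay above RPL23, at 623.

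Of the RPL symbols, 4 belonged to paralogs of other ribosomal genes. RPL7L1 had 71.6 ± 4.48 TPM (SD, n = 4), RPL26L1 67.1 ± 15.2 and RPL3L, the striated-muscle paralog of RPL3, 61.9 ± 24.9. RPL10L, a paralog known from testis, and RPL39, a small core protein, had 1 count each, in tendon 4, and 0 in the other 3 tendons. A count of 0 allows up to 0.0979 to 0.152 CPM in these libraries, a limit of 3 counts that covers counting error only. The RPL39 entry, at 156 bases, has the shortest transcript of the 77 genes. Its genomic span, 481420 to 481575 on an unplaced scaffold, is no longer than that transcript. Whether RPL39 reads went to other copies or to genes without a symbol was not tested. The level of RPL39 in tendon is thus not known from this entry.

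Small-subunit genes were led, with annotated lengths, by RPS3A (ENSOCUG00000007011.2, chromosome 15, 13363449 to 13367815), with 2611, 2566, 2975 and 2737 TPM in tendons 1 to 4. Its mean of 2722 ± 183 TPM (SD, n = 4) was the highest of the 31 ribosomal symbols on that scale. With effective lengths, which allow for an assumed fragment of 150 bases, RPS3A had 2598 TPM, below RPL23 at 2727 TPM and RPS21 at 2633 TPM, so the lead depended on the length used. RPS15A had 1944 ± 101 TPM and RPS14 1693 ± 116. RPS3, near the point where messenger RNA enters the ribosome, had 1598 ± 72.4 TPM and RPS21, whose annotated transcript has 252 bases, 1366 ± 43.4. The genomic span of RPS21, 30038 to 30289 on an unplaced scaffold, is no longer than that transcript, as for RPL39. Whether reads of other copies enter the RPS21 level was not tested. RPS16, RPS28, RPS7, RPS12, RPS27A and RPS13 lay between 481 and 942 TPM, with RPS28 at 931 ± 29.2 TPM, or 1477 TPM with effective lengths. RPS27A encodes a fusion of ubiquitin with its ribosomal protein. RPS23, a protein of the decoding centre, was the lowest, with 150, 181, 166 and 171 TPM. All 14 small-subunit genes had a mean above 100 TPM, as had 12 of 17 RPL genes, and 7 and 6 of them, respectively, were above 1000 TPM. Although their products are present once per ribosome, the measured RPS levels thus spanned from 167 to 2722 TPM.

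**Figure D1:**
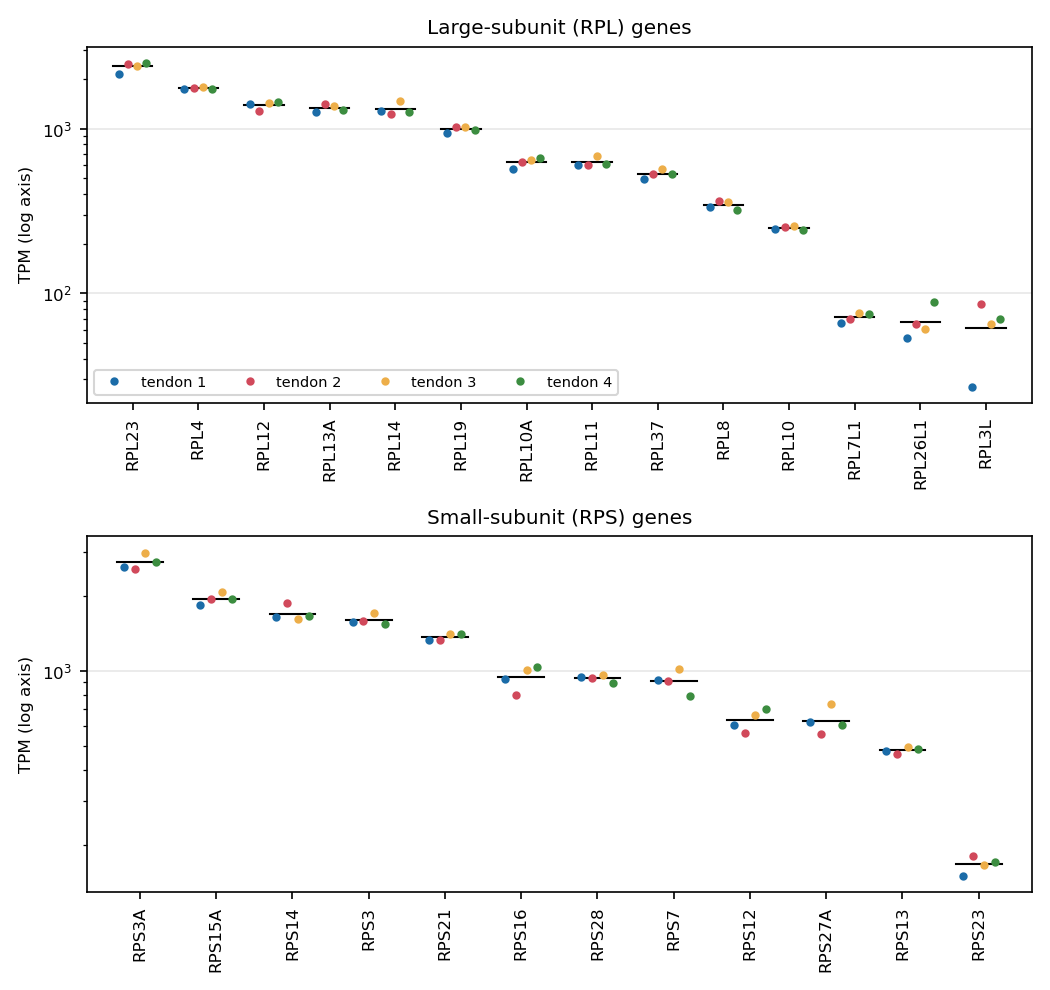
TPM on a log axis of 14 RPL (top) and 12 RPS (bottom) genes whose mean reached 1 TPM; points are tendons 1 to 4 and bars the mean of 4. Points of a gene lie close together, from 2156 to 2493 TPM for RPL23, except for RPL3L, which runs from 27.1 to 85.9 TPM.

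EEF1A1 encodes the elongation factor that carries aminoacyl transfer RNA to the ribosome (ENSOCUG00000008481.2, chromosome 12, 60379747 to 60382270). Its levels in tendons 1 to 4 were 10682, 10226, 11563 and 9941 TPM, on average 10603 ± 709 (SD, n = 4), and ranked 7th of all named genes. The next gene of the rule, RPS3A, had 2722 TPM. EEF1G and EEF1B2, subunits of the complex that recharges eEF1A with GTP, had 1073 ± 98.1 and 494 ± 79.9 TPM. EEF1G was lowest in tendon 1 (944 TPM) and highest in tendon 2 (1183 TPM), whereas EEF1B2 was lowest in tendon 2 (402 TPM) and highest in tendon 3 (583 TPM). EEF1A1 exceeded EEF1B2 23.4-, 25.4-, 19.8- and 18.7-fold in tendons 1 to 4. EEF2K, the kinase that inhibits elongation factor eEF2, had 43.1 ± 3.71 TPM. EEFSEC, which delivers selenocysteine, had 5.48 ± 0.416 TPM, and EEF1AKMT3, a methyltransferase of eEF1A, 5.52 ± 0.286. EEF1A2, the muscle and nerve form of eEF1A, EEF1D and EEF2 had no entry under those symbols and were not analysed here.

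The factor eIF2 brings the initiator transfer RNA, and eIF2B recharges it with GTP. The measured eIF2 subunits EIF2S1 and EIF2S2 stood at 68.3 ± 1.59 and 124 ± 2.16 TPM (SD, n = 4). EIF2S2 had 122, 122, 125 and 127 TPM in tendons 1 to 4, an SD of 1.74% of its mean. EIF2S2 was 1.78- to 1.89-fold above EIF2S1 in the 4 tendons. The 5 subunits of eIF2B were lower, with EIF2B4 at 31.6 ± 0.980 TPM, EIF2B3 at 28.4 ± 0.513, EIF2B1 at 23.9 ± 2.18, EIF2B5 at 17.0 ± 1.28 and EIF2B2 at 11.5 ± 0.860. Their highest and lowest subunit differed 2.61- to 3.03-fold within a tendon. The order of the eIF2B subunits rests on annotated lengths. In TMM-normalised CPM, EIF2B5 was highest, with a mean of 34.8, then EIF2B2 at 33.0, and EIF2B1 was lowest, at 13.0. EIF2A and EIF2D, which can act in other routes of initiator delivery, had 49.1 ± 2.27 and 50.0 ± 3.48 TPM with means within 1 SD of each other. EIF5B, which joins the subunits, had 57.9 ± 8.38 TPM.

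Stress kinases halt initiation by phosphorylating eIF2, and all 4 were measured. EIF2AK1, activated by lack of heme, had 42.9, 39.0, 36.4 and 42.7 TPM in tendons 1 to 4. EIF2AK3 (PERK), activated by unfolded protein in the endoplasmic reticulum, had 36.5, 29.7, 29.2 and 28.2 TPM, highest in tendon 1. EIF2AK4 (GCN2), activated by lack of amino acids, had 13.2 ± 1.51 TPM (SD, n = 4), and EIF2AK2 (PKR), activated by double-stranded RNA, 8.10 ± 4.11. In TPM, EIF2AK1 exceeded EIF2AK4 2.72- to 3.50-fold, a mean log2 ratio of 1.61 ± 0.158. Without length correction the order was reversed, with means of 41.3 and 62.8 TMM-normalised CPM. EIF2AK2 was below EIF2AK3 in all 4 tendons, by a mean log2 ratio of -2.07 ± 0.85. EIF2AK2 made up 6.11%, 4.49%, 14.4% and 9.91% of the summed TPM of the 4 kinases.

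The large scaffold eIF3 prepares the small subunit for messenger RNA, and 11 of 13 listed subunits had an entry. They ranged from 59.8 ± 4.21 TPM for EIF3D to 355 ± 21.3 for EIF3F (SD, n = 4), a 5.52- to 6.31-fold difference within a tendon. This order rests on annotated lengths. In TMM-normalised CPM, EIF3J was lowest, with a mean of 60.1, and EIF3E highest, at 498. EIF3K had 279 ± 23.1 TPM, EIF3E 242 ± 34.1 and EIF3H 232 ± 15.7. EIF3J stood at 141 ± 8.82 TPM, EIF3I at 128 ± 10.2 and EIF3L at 126 ± 4.25. Next were EIF3B at 97.0 ± 3.03 TPM, EIF3A, the largest subunit, at 90.7 ± 12.7, and EIF3M at 80.4 ± 14.5. EIF3M varied more than the others, with 70.5, 67.7, 99.4 and 83.9 TPM in tendons 1 to 4, high in tendons 3 and 4. Between tendons no measured eIF3 subunit differed by more than 1.46-fold in TMM-normalised CPM.

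The cap-binding complex eIF4F joins the cap-binding protein eIF4E, the scaffold eIF4G and the helicase eIF4A. EIF4A2 was the most abundant initiation factor gene (ENSOCUG00000005011.2, chromosome 14, 78838991 to 78845089), with 819, 718, 743 and 743 TPM in tendons 1 to 4. Its paralog EIF4A1 had 345, 366, 351 and 372 TPM, below EIF4A2 in every tendon. The mean log2 ratio of EIF4A1 to EIF4A2 was -1.07 ± 0.12 (SD, n = 4), and the values did not overlap. EIF4G2, a relative of eIF4G1 that lacks the eIF4E-binding site, had 685, 650, 655 and 698 TPM and exceeded EIF4G1, at 154 ± 9.25 TPM, 4.16- to 4.65-fold. EIF4G1 in turn exceeded EIF4G3, at 36.4 ± 4.89 TPM, with a mean log2 ratio of 2.09 ± 0.16. The EIF4G1 model spans other genes of its strand, so its level and both of its ratios are less certain. The cap-binding gene EIF4E had 26.5, 18.7, 24.5 and 26.9 TPM, lowest in tendon 2. EIF4E2, whose product binds the cap without recruiting eIF4G and can repress translation, had 58.0, 58.5, 56.0 and 66.3 TPM. In TPM it was above EIF4E in every tendon, and the mean log2 ratio of EIF4E to EIF4E2 was -1.32 ± 0.23. This order rests on annotated lengths, 738 bases for EIF4E2 and 3651 for EIF4E. In TMM-normalised CPM the order was reversed in every tendon, with 22.39 to 25.73 for EIF4E2 and 40.57 to 51.59 for EIF4E. EIF4E3 had 32.5 ± 2.66 TPM, and EIF4E1B, known from germ cells, had 0 counts in all 4 tendons. The helicase cofactors EIF4H and EIF4B had 195 ± 5.92 and 180 ± 12.6 TPM.

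Proteins that bind eIF4E and block cap-dependent initiation are inactivated by the growth kinase mTOR. EIF4EBP2 had 384, 359, 387 and 324 TPM in tendons 1 to 4, and EIF4EBP1 had 36.4, 67.5, 61.8 and 60.01 TPM. EIF4EBP2 was higher in all 4 tendons, 10.5-fold in tendon 1 and 5.31- to 6.26-fold in the other 3, a mean log2 ratio of 2.72 ± 0.46 (SD, n = 4). With effective lengths the mean log2 ratio was 2.11. EIF4ENIF1, which carries eIF4E into the nucleus, had 23.9 ± 2.02 TPM. EIF1AD, named for its eIF1A domain, had 54.1 ± 7.24 TPM. In TPM, each of the 7 ratios between paralogs or partners given for the eIF2 kinases, eIF4F and the binding proteins lay on one side of 1 in 4 of 4 tendons. In an exact permutation test that flips signs (two-sided), each ratio had a p of 1 in 8, also after Benjamini-Hochberg adjustment over the 7. That is the smallest p 4 tendons allow, so none could reach 0.05. The other 9 of 16 listed ratios needed a symbol without an entry, among them EEF1A1 to EEF1A2 and RPL3 to RPL3L.

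**Figure D2:**
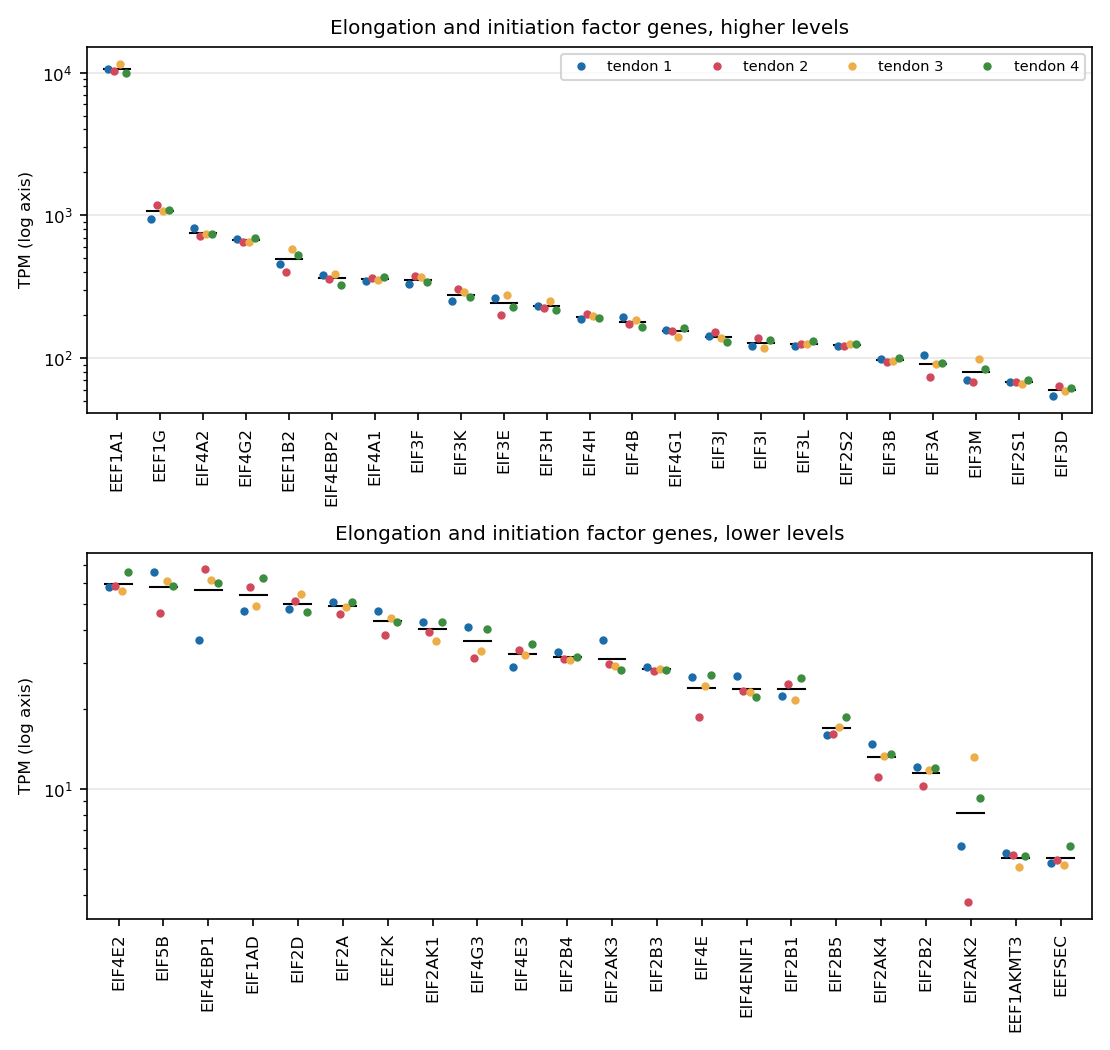
TPM on log axes of the 45 elongation and initiation factor genes whose mean reached 1 TPM, in falling order over 2 panels; points are tendons 1 to 4 and bars the mean of 4. EEF1A1 stands alone at 10603 TPM, and EIF2AK2 (3.75 to 13.2 TPM) and EIF4EBP1 (36.4 to 67.5 TPM) have points farther apart than their neighbours.

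Most of these genes varied little between the 4 animals. Of the 77, 73 had a mean of at least 10 TMM-normalised CPM and were used to describe spread. EEF1AKMT3, RPL10L, RPL39 and EIF4E1B were not. The highest tendon was less than 1.5-fold above the lowest for 69 of 73, or 94.5%, against 71.1% of all 8784 genes at that level. The SD of log2(CPM + 1) over tendons had a median of 0.13 for the 73 genes and 0.18 for all 8784 genes. It was 0.13 for RPL, 0.12 for RPS and 0.13 for EIF genes. The SD was above the median of all genes for 12 of 73. EIF2A had the smallest SD, 0.0215, followed by EIF2B2 at 0.0279, RPL12 at 0.0333, EIF3B at 0.0535 and EIF4G2 at 0.0546. At a mean of 100 CPM or more, a level chosen after seeing the data, 47 of these genes had a median SD of 0.13 and all 1659 genes 0.19. There 0 of 47 had a 2-fold range, against 12.4% of all genes, and 0 of 47 a 4-fold range, against 3.19%.

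**Figure D3:**
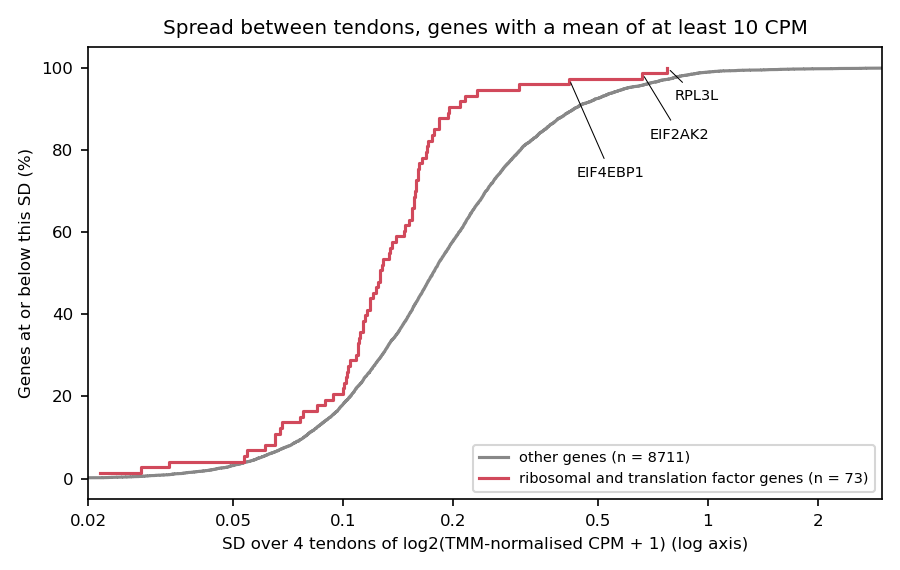
Cumulative percent of genes (vertical axis) against the SD over 4 tendons of log2(TMM-normalised CPM + 1) (log axis), for the 73 ribosomal and translation factor genes (red) and the other genes (grey) whose mean reached 10 CPM. The red curve rises earlier, with a median of 0.13, and ends in a tail of EIF4EBP1, EIF2AK2 and RPL3L.

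RPL3L, EIF2AK2 and EIF4EBP1 were the 3 of 73 genes whose highest tendon was at least 2-fold the lowest, a share of 4.11% against 10.2% of all genes. A range of at least 4-fold was reached by 0 of 73, against 2.12% of all genes. Next after them came RPL26L1, with 53.8, 65.2, 60.7 and 88.8 TPM in tendons 1 to 4, high in tendon 4, and a 1.66-fold range in TMM-normalised CPM. EIF3M, EIF1AD, EEF1G and EIF3K followed with SDs of 0.20 to 0.23 on the log2 scale. Without tendon 1 the count fell from 3 to 1, with EIF2AK2 alone, against 5.36% of all genes.

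RPL3L encodes a paralog of the large-subunit protein RPL3 that is known from heart and skeletal muscle (ENSOCUG00000016283.3, on an unplaced scaffold). It had 27.1, 85.9, 64.7 and 70.0 TPM in tendons 1 to 4, a single low tendon and 3 high ones. In TMM-normalised CPM the values were 24.5, 88.3, 60.6 and 63.6, a 3.60-fold range that was 1.46-fold without tendon 1. RPL3L was 1.56%, 4.89%, 3.60% and 4.03% of RPL4. The 11 muscle genes measured summed to 7475, 29594, 15215 and 21245 TPM in the same tendons, likewise lowest in tendon 1 and highest in tendon 2. All 11 were detected in every tendon, although the fast myosin genes MYH2 and MYH1 were at most 1.01 TPM outside tendon 4. Per 1000 TPM of these muscle genes RPL3L had 3.63, 2.90, 4.26 and 3.29 TPM, a 1.47-fold range. Set against single muscle genes in the same way, its range was 1.19-fold for MB (myoglobin), 1.46-fold for TNNC1 and 1.51-fold for TNNI1 (both troponin subunits) and 1.60-fold for ACTA1 (skeletal actin). Like RPL3L, these genes and CKM were highest in tendon 2. By contrast, DES, MYH2, MYH1, MYL1, TNNC2 and MYLPF were highest in tendon 4. MYL1, for example, had 18.6, 46.1, 34.7 and 1234 TPM in tendons 1 to 4. RPL3L was not set against CKM, which had a 5.70-fold range in TMM-normalised CPM, nor against the genes highest in tendon 4. The part of muscle RNA in the RPL3L values was not tested. RPL3L overlaps MSRB1, a gene of the same strand with 96.4 TPM on average, and reads of the shared part may be split between them.

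EIF2AK2 encodes PKR, the eIF2 kinase of the antiviral response (ENSOCUG00000007223.3, chromosome 2, 149149230 to 149190232). It had 6.13, 3.75, 13.2 and 9.29 TPM, higher in tendons 3 and 4 than in tendons 1 and 2, and a 3.22-fold range in TMM-normalised CPM. The range was 3.22-fold without tendon 1, 2.24-fold without tendon 2, 2.19-fold without tendon 3 and 3.20-fold without tendon 4. With a mean of 10.6 CPM it lay just above the level set for this description, and its mean was below that level without tendon 3 or tendon 4. The 7 macrophage markers listed, all measured and none at 0, summed to 85.2, 67.7, 164 and 204 TPM in tendons 1 to 4. The 4 of 5 adipocyte markers with an entry summed to 213, 304, 446 and 716 TPM and the 5 endothelial markers to 150, 192, 262 and 263 TPM. These lists were also higher in tendons 3 and 4, and their part in the EIF2AK2 values was not tested.

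EIF4EBP1 (ENSOCUG00000017792.2, on an unplaced scaffold) was low in tendon 1, at 36.4 TPM, and between 60.01 and 67.5 TPM in the other 3. Its range in TMM-normalised CPM was 2.11-fold with all tendons, 1.27-fold without tendon 1 and 1.76-fold without tendon 2. DDIT4, an inhibitor of mTOR, had 564, 74.4, 129 and 104 TPM and was high in tendon 1, the tendon with the lowest EIF4EBP1. The annotated EIF4EBP1 transcript has 357 bases, and genes under 1000 bases had a median deviation from their own mean of -0.09 (log2 scale) in tendon 1. The summed muscle genes (7475, 29594, 15215 and 21245 TPM) were, like EIF4EBP1, lowest in tendon 1 and highest in tendon 2. The part of DDIT4, of transcript length or of muscle RNA in the EIF4EBP1 values was not tested.

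**Figure D4:**
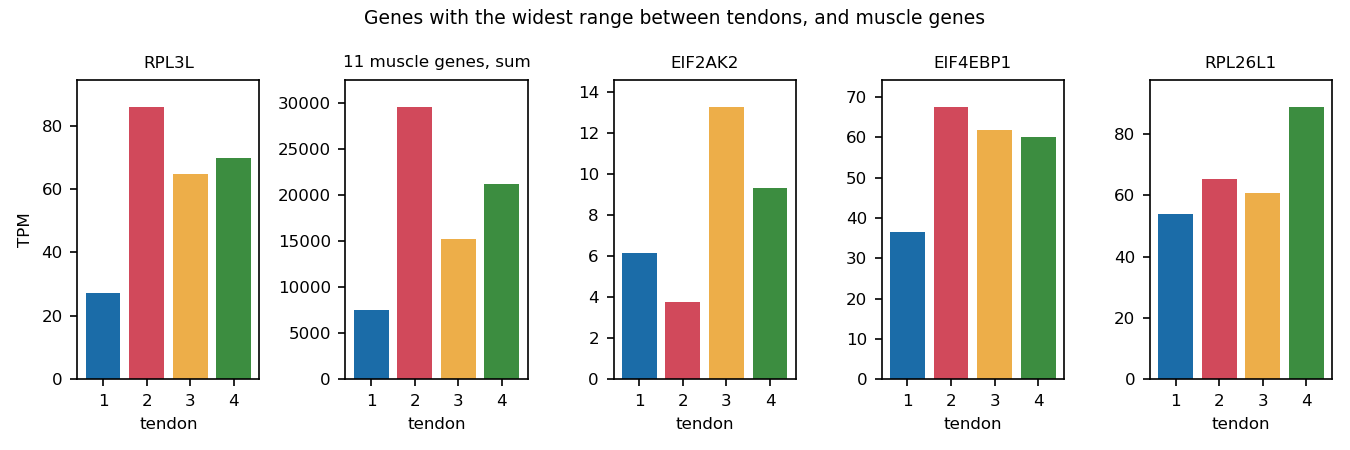
TPM (vertical axes from 0, each panel with its own scale) in tendons 1 to 4 of RPL3L, the sum of 11 skeletal muscle genes, EIF2AK2, EIF4EBP1 and RPL26L1. RPL3L and the muscle sum are both lowest in tendon 1 (27.1 and 7475 TPM) and highest in tendon 2 (85.9 and 29594 TPM), and EIF2AK2 is highest in tendon 3 (13.2 TPM).

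The tendon in which the genes stood highest depended on the scale. In TMM-normalised CPM, 43 of 73 genes were highest in tendon 2, or 58.9% against 31.6% of all genes, and 15 in tendon 3, against 15.7%. In TPM, 14 were highest in tendon 2 against 13.1% of all genes, 25 in tendon 3 against 15.2% and 21 in tendon 4 against 27.5%. From TMM-normalised CPM to TPM, the median of all genes moved by -0.12 on the log2 scale in tendon 2 relative to the mean of the tendons. None of the 29 ribosomal genes used (0 of 29) was highest in tendon 1 in TMM-normalised CPM, with DESeq2 size factors, with library totals or in TPM, whereas 34.2% of all genes were in TMM-normalised CPM and 44.2% in TPM. Tendon 1 was the lowest for 20 of 29 in TMM-normalised CPM and for 13 of 29 in TPM, against 30.0% and 22.0% of all genes. Tendon 2 was the lowest for 1 of 29 in TMM-normalised CPM, against 21.9% of all genes, and for 8 of 29 in TPM, against 45.1%. Of the initiation factor genes, 7 of 39 were highest in tendon 1 in TMM-normalised CPM and 12 of 39 in TPM. The difference between these gene groups was not tested.

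Transcript length moved with these values. Among all genes, those under 1000 bases had a median deviation from their own mean of -0.09 in tendon 1 and 0.13 in tendon 2 (log2 scale, TMM-normalised CPM), and those over 3000 bases 0.08 and -0.05. The 26 ribosomal and translation factor genes under 1000 bases had -0.14 and 0.12, and the 16 over 3000 bases -0.01 and 0.01. Of all genes under 1000 bases, 15.7% were highest in tendon 1 in TMM-normalised CPM and 25.8% in TPM. Among initiation factor genes, the 8 under 1000 bases had -0.17 in tendon 1 and 0.20 in tendon 2, and the 14 over 3000 bases 0.04 and -0.06. Tendon 1 also had the smallest library and the highest summed level of tenocyte genes, 65814 TPM. That sum held 15218 TPM of COL1A1, 15234 of COL1A2 and 19666 of DCN. MKX, EGR1 and KERA were also highest in tendon 1, but THBS4 and FMOD were highest in tendon 2 and TNMD in tendon 4. The part of length, depth and matrix genes in the tendon 1 values was not tested.

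**Figure D5:**
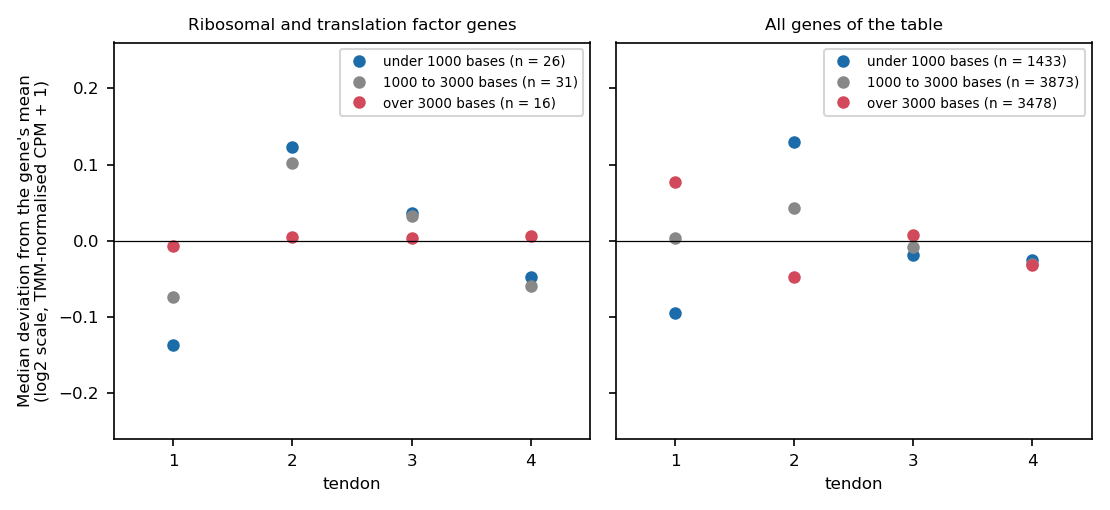
Median deviation of genes from their own mean (log2 scale, TMM-normalised CPM + 1) in tendons 1 to 4 for 3 classes of transcript length, for ribosomal and translation factor genes (left) and all genes (right). In tendon 1, genes under 1000 bases are lowest in both panels, at -0.14 and -0.09.

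Other genes of the pathway were taken from lists of symbols. Of 15 listed genes of translation outside the rule, 10 had an entry and 0 of 10 had a 2-fold range, against 10.2% of all genes. They were led by TPT1, which encodes the translationally controlled tumour protein, at 4111 ± 477 TPM (SD, n = 4), the poly(A)-binding protein gene PABPC1 at 410.4 ± 23.2 and PAIP2, which binds that protein, at 181 ± 17.7. Of 18 ribosome biogenesis genes, 16 had an entry and 15 passed the level of 10 CPM, and 0 of 15 had a 2-fold range. NCL (nucleolin) had 405 ± 44.9 TPM, FBL (fibrillarin) 61.6 ± 7.17 and UBTF, a factor of RNA polymerase I, 49.9 ± 3.99. For 19 transfer RNA synthetase genes with an entry the count was also 0 of 19, with KARS highest at 164 ± 12.1 TPM, then AARS at 124 ± 24.2 and NARS at 103 ± 6.32. Of 15 mTOR pathway symbols 10 had an entry, and 2 of 10 had a 2-fold range, DDIT4 and EIF4EBP1. The kinase gene MTOR had 14.90 ± 0.571 TPM, its activator RHEB 197 ± 6.00 and AKT2 107 ± 7.94. The ribosomal symbols RPLP0, RPLP1, RPLP2, RPSA, FAU and RACK1 and the eIF5A symbols had no entry and were not analysed here.

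The 77 genes were spread over 19 chromosomes, with 23 on unplaced scaffolds, and each symbol had 1 gene identifier. On placed chromosomes, EIF4G1 and EIF2B5 on chromosome 14 lay 25.97 kb apart and RPL23 and RPL19 on chromosome 19 lay 219 kb apart, the 2 pairs closer than 1 Mb. For 8 genes there were 2 transcripts. The shorter RPS15A transcript of 429 bases took 90.9% ± 0.189 of the gene's TPM (SD, n = 4), and the 960-base EIF3F transcript 91.6% ± 0.782. EIF5B was shared more evenly, with 64.0% ± 2.51 in its 4214-base transcript. For EEF1AKMT3 the 678-base transcript held 59.0%, 97.6%, 100% and 81.1% in tendons 1 to 4, at few counts. Such splits are estimates, as the reads of 1 gene's transcripts overlap. The EIF4G1 model spans other genes, among them PSMD2, ABCF3 and a gene without a symbol on the same strand. That unnamed gene had 290 TPM on average, against 154 TPM for EIF4G1, and reads of shared parts may be split between them. EIF2AK4 overlaps SRP14, at 174 TPM, on the opposite strand. Ribosomal protein genes also have many near-identical copies in mammalian genomes, so their levels are uncertain where copies without a symbol share reads.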

How the data were processed

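Per the labels' protocols, frozen tendons were ground, RNA integrity was checked and a TruSeq kit was used on poly(A)-selected RNA. The deposited values are estimated counts per transcript, neither scaled for depth nor for length, 1 column per tendon; kallisto 0.42.4 and OryCun2.0 are named in the submitters' processing notes without their roles, and filters and strand use are not given in the sources used here. Transcript lengths in bases are deposited in the same table. Counts were summed per gene identifier. TPM were computed from annotated lengths; counts rounded to whole numbers were scaled by TMM in edgeR 4.0.16 (R 4.3.3), on genes reaching 1 CPM in 2 or more tendons, with DESeq2 1.42.0 size factors as an alternative. Spread was described for genes whose mean reached 10 CPM, as the SD of log2(CPM + 1) and as the range between tendons; ratios of TPM + 0.01 were tested by exact sign-flip permutation. Totals ranged from 19759696 to 30646052 counts. Other steps ran in Python 3.11.15 (scipy 1.17.1, pandas 2.3.3, numpy 2.4.6).

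By rule, named genes were those of the listed ratios and complexes, the 4 highest and 2 lowest by TPM in each group, the 8 with the largest and 5 with the smallest SD, up to 3 of highest TPM per list outside the rule, and genes behind counts of 5 or fewer. Further members, and MSRB1 and the other overlapping genes, were named after their values were seen. The members and lists were chosen with earlier results of these data known. In simulated data, 200 genes were changed 4-fold or 8-fold in 1 tendon, with a coefficient of variation set at 0.141. Both sizes were set above 2-fold, and 100% of these genes had a 2-fold range. Of 8563 unchanged genes, 0.455% had a 2-fold range, a value for that setting only. Whether the measured genes have that spread was not tested. No sequences were used here. Values of a few genes are not reported here, though they enter the counts and sums. As each ratio lay on the same side of 1 in all 4 tendons, its p-value was set by those signs and does not measure the spread between tendons. The p-values cover these 4 tendons only.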

Additional observations from a re-analysis of the deposited data

Results flagged for a closer look

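Of 86 values checked, 5 had 1 tendon far from the other 3 by Dixon's ratio of gap to range, above its critical value for 4 samples, where chance, at about 1 in 20, gives about 4.3; 4 of the 5 are given here. The share of TPM of all 77 genes was highest in tendon 3, at 5.10% against 4.67% to 4.73%, with a ratio of 0.869. RPL11 (0.833) was also highest in tendon 3, at 680 TPM against 598 to 612. RPS14 (0.851) was highest in tendon 2, at 1866 TPM against 1616 to 1654. EIF2B2 (0.845) was lowest in tendon 2, at 10.3 TPM against 11.8 to 12.1.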

How the results depend on the processing

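Shares of the 77 genes together and of the RPL, RPS, EEF and EIF genes, 4.81%, 1.29%, 1.76%, 1.22% and 0.535% of TPM, were 3.17%, 0.691%, 0.708%, 1.09% and 0.683% without length correction. Leaving out mitochondrial genes gave 5.43%, 1.46%, 1.99%, 1.38% and 0.604%. Effective lengths for an assumed fragment of 150 bases gave 1.97% (RPS), 1.06% (EEF) and 0.473% (EIF), an EIF2S2 to EIF2S1 ratio of 1.70 in place of 1.82 and an eIF3 range of 6.69 in place of 5.95; they moved 57 of 74 gene means by more than 1 SD, from 0.801-fold (EIF4G3) to 1.93-fold (RPS21). Protein-coding transcripts alone gave 0.543% for EIF. The direction of all 7 ratios was the same under every alternative run in TPM, but with effective lengths the mean log2 ratio of EIF4EBP2 to EIF4EBP1 was 2.11 in place of 2.72. In TMM-normalised CPM, the orders of EIF2AK1 and EIF2AK4 and of EIF4E and EIF4E2 were reversed. The number of genes with a 2-fold range, 3, was 1 to 2 with 1 tendon left out and 0 with a mean of at least 100 CPM. The number highest in tendons 1 to 4 (8, 43, 15 and 7) was 3, 13, 31 and 26 with library totals and 13, 14, 25 and 21 in TPM. With DESeq2 size factors these numbers stayed within 1.5 times. No paired analysis was possible because there is 1 group. The entries of RPL10L and EIF4E1B, with at most 1 count, are below what this depth resolves. The RPL39 entry also had 1 count, but whether its reads went to other copies was not tested.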

Other observations

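Interferon-induced genes, listed after the EIF2AK2 values were seen and so with no test, had an entry for 13 of 20 symbols. Their sum was 173, 175, 258 and 266 TPM in tendons 1 to 4, higher in tendons 3 and 4, as was EIF2AK2 at 13.2 and 9.29 TPM. ISG15, a ubiquitin-like protein gene, had 3.64, 6.38, 18.5 and 21.8 TPM, and IFI44 5.23, 5.33, 11.5 and 15.5 TPM. IFIT5 was highest in tendon 3, at 19.5 TPM against 6.54 to 10.1 TPM in the others, the same tendon as EIF2AK2. IFIT2, at 16.5 ± 1.22 TPM (SD, n = 4), did not follow this order.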
